A study of Mus musculus with 24 samples.

Results

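The insulin-like growth factor (IGF) ligands, their signalling receptor and the IGF-binding proteins were followed in whole mouse kidneys with and without cystic disease. The 10 genes Igf1, Igf2, Igf1r and Igfbp1 to Igfbp7 were chosen by gene symbol from the 54532 genes of the count table, and all 10 passed the expression limit used for testing. The right kidneys of 24 C57BL/6 mice, killed when 18 days old, had each given 1 RNA-seq library. Every mouse carried RC, a missense version of Pkd1, the polycystin-1 gene. In the RC/+ group (n = 3) the other Pkd1 allele was floxed but not recombined. In the RC/- group (n = 5) it was inactivated by a Cre transgene driven by the Ksp (Cdh16) promoter, which is active in tubule epithelium, so that Cre and the cystic genotype cannot be told apart. The edited lines lacked the miR-17 motif in the Pkd1 3′ UTR of the RC allele. Line D18 came from founder 3 (RC/+ D18, n = 3, and RC/- D18, n = 5) and line D53 from founder 2 (RC/+ D53, n = 3, and RC/- D53, n = 5), so that each line descends from 1 edited founder and line and founder cannot be told apart. No group received a drug.

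IGF-I and IGF-II activate the receptor tyrosine kinase encoded by Igf1r, which signals through insulin receptor substrates and Shc to the PI3K-Akt and MAP kinase pathways. IGFBP1 to IGFBP6 bind the ligands with high affinity and can either withhold them from the receptor or deliver them, and proteases such as PAPP-A release the ligand by cutting the binding protein. In kidney the system is known for its part in nephron growth and compensatory enlargement, and IGFBP1 is known from liver as a gene that insulin switches off.

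The libraries held 20379982 to 30837488 counts. The 9 proximal tubule markers summed to 2239 to 12281 counts per 1e6 library counts (CPM) and the 6 podocyte markers to 287 to 701 CPM, so every library held kidney RNA. Pkd1 itself was at 38.4 to 71.4 CPM, and whole-gene counts do not separate its alleles. RC/- replicate 16 stood apart with 186 CPM of the adrenal cortex enzyme gene Cyp11b1, against at most 0.81 CPM in the other libraries. Libraries 20 to 27, made up of all 5 RC/- D53 libraries and replicates 20 to 22 of RC/- D18, held skeletal muscle markers at 164 to 218 CPM in sum, against at most 12.1 CPM in the others. The hepatocyte gene Alb reached 73.1, 29.4 and 9.11 CPM in RC/- replicates 13, 16 and 17 and 88.3 and 20.6 CPM in RC/- D53 replicates 25 and 27, against at most 3.11 CPM elsewhere. The sum of 8 hepatocyte markers did not follow Alb throughout. It was 298, 162 and 117 CPM in RC/- replicates 13, 16 and 17, against 250 to 274 CPM in RC/+. In RC/- D53 replicates 25 and 27 it was 388 and 369 CPM.

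Several of the genes sit beside each other in the genome (GRCm38). Igfbp2 (chromosome 1, 72824503 to 72852474, plus strand) and Igfbp5 (chromosome 1, 72857932 to 72874884, minus strand) are tail to tail with 5457 bases between them. Igfbp1 (chromosome 11, 7197782 to 7202546, plus strand) and Igfbp3 (chromosome 11, 7206086 to 7213923, minus strand) are likewise tail to tail, 3539 bases apart. Igfbp4 lies at 99041244 to 99054392 on chromosome 11, Igfbp6 at 102144362 to 102149511 on chromosome 15 and Igfbp7 at 77349240 to 77408041 on chromosome 5. The growth factor gene Igf1 lies at 87858265 to 87937042 on chromosome 10, and Igf2 (142650766 to 142666816) and Igf1r (67952827 to 68233668) are on chromosome 7.

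The promoters of Igfbp1, Igfbp2 and Igfbp5 are printed here because these 3 genes had the largest log2 fold changes of the 10 in RC/- D18 against RC/- kidneys. Each begins 250 bases before the RefSeq start (GRCm38.p6), runs in the direction of the gene and ends before the first annotated transcribed base. Capitals mark motif matches. They are Igfbp1 at chr11:7197537-7197781, plus strand, Igfbp2 at chr1:72824230-72824479, plus strand, and Igfbp5 at chr1:72874885-72875115, minus strand.
Igfbp1: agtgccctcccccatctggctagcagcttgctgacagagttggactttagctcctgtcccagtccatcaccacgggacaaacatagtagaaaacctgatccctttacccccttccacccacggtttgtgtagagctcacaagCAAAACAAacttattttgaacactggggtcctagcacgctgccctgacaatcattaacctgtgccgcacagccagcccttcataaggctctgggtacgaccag
Igfbp2: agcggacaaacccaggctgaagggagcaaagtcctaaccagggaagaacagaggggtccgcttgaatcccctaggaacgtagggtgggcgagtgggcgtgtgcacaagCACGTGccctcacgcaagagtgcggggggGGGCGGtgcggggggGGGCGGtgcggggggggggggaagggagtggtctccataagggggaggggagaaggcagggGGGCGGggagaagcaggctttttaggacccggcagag
Igfbp5: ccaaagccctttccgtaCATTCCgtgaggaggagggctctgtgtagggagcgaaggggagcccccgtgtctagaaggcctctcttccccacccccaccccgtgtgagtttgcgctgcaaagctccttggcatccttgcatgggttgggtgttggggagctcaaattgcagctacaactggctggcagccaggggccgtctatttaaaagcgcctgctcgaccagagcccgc
Motifs were searched on both strands from 250 bases before to 50 bases after the RefSeq start, which is position 0, and no match in these promoters overlapped another. The capitals in Igfbp1 are CAAAACAA, the core of the insulin response element described for this gene, from position -108 to -101, a run of letters held by 2.51% of 32851 promoters of the same 300 bases. In Igfbp2 they are the E-box CACGTG at -142 (7.15% of promoters) and 3 GC boxes GGGCGG (35.7%). In Igfbp5 they are CATTCC, the core bound by TEAD factors, at -233 (14.7%). The letters TATAAA (13.6%), CCAAT (37.4%), TGACGTCA (1.79%) and GTAAACA (3.65%) were searched as well and were found in none of the 3 searched windows. These matches describe letters in a window and were not tested for binding.

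The motif deleted from Pkd1 is a binding motif of miR-17. The RefSeq sequence of miR-17-5p is shown because a 3′ UTR of the IGF genes holds a match to its seed. Capitals mark the seed, bases 2 to 8.
mmu-miR-17-5p: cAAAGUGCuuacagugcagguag
Its seed match GCACTTT was found in the longest annotated 3′ UTR of 2474 of 21039 genes (11.8%). Among the 10 IGF genes it occurs only in Igfbp4, 1 time, at position 1562 of 2813 bases. The Igfbp4 match is intact in the annotation used here, and the editing was aimed at Pkd1.

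Compared per kilobase of exon, the binding protein genes in sum far outweighed the ligand genes in kidney RNA, although Igfbp1 and Igfbp6 were near Igf1. Igfbp7, which encodes a secreted vessel wall protein with low affinity for IGFs, averaged 1823 CPM per kb over the 24 libraries and made up 74.3% to 82.1% of the summed level of the 7 binding protein genes in each library. Igfbp4 followed at 185 CPM per kb, then Igfbp5 (96.5), Igfbp2 (95.5) and Igfbp3 (85.8). The lowest were Igfbp1 (10.7) and Igfbp6 (8.64). On the same scale Igf1r averaged 7.56, Igf1 7.17 and Igf2 0.0263 CPM per kb.

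**Figure D1:**
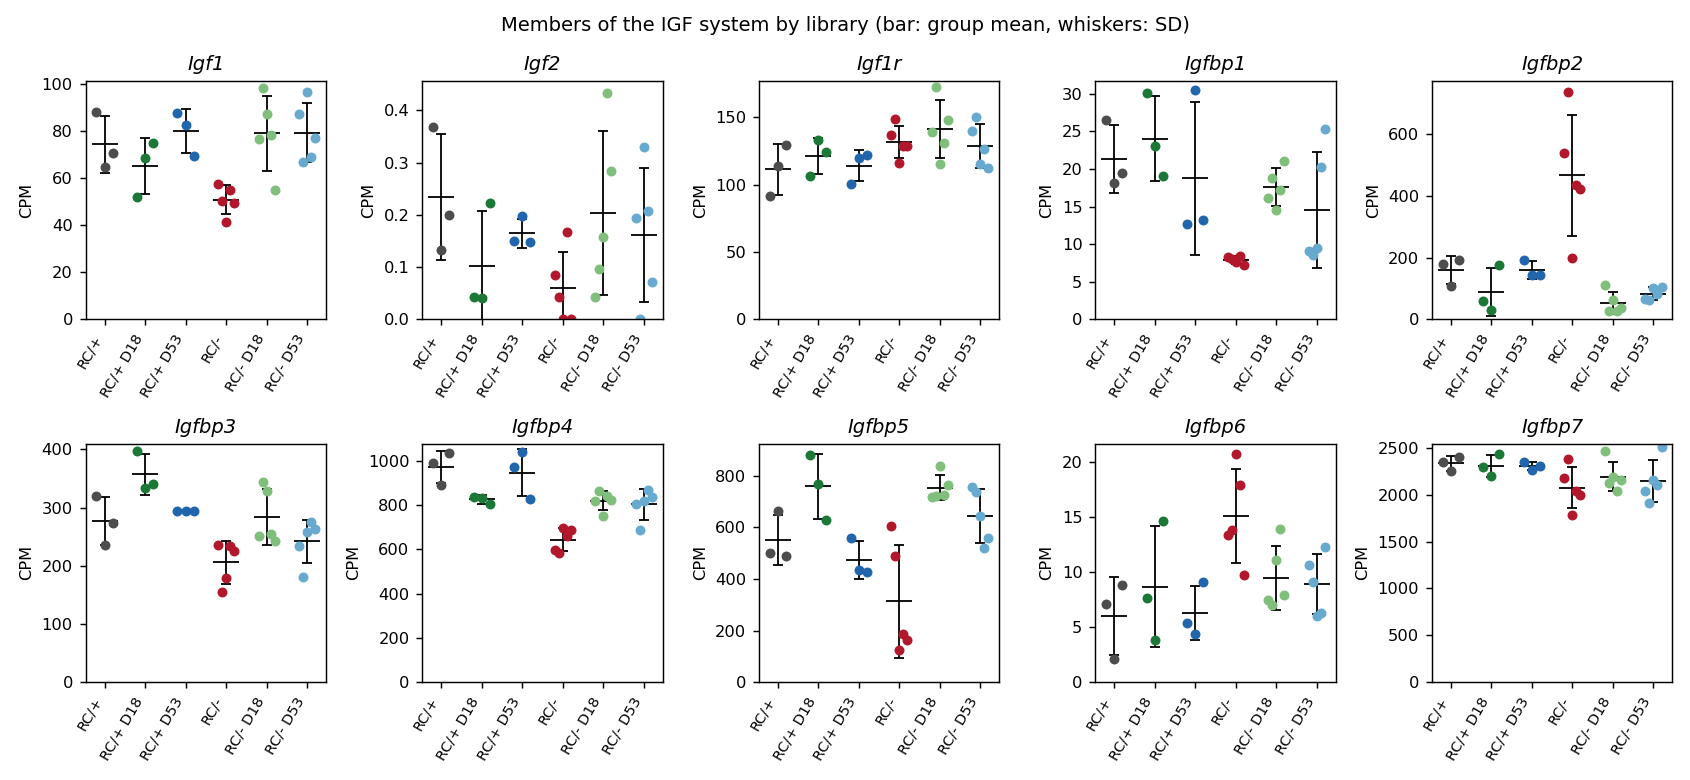
Level of each of the 10 IGF genes in CPM (linear axes from 0) in every library of the 6 groups, with the group mean and SD (whiskers that would pass below 0 end there). Every RC/- library lies above every RC/+ library for Igfbp2 and Igfbp6 and below every RC/+ library for Igf1, Igfbp1, Igfbp3 and Igfbp4, while Igfbp5 in RC/- spans 124 to 604 CPM.

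RC/- and RC/+ kidneys were compared to ask what differs in cystic disease with the motif intact. Of the 10 genes, 7 passed an adjusted p of 0.05 (limma-trend, Benjamini-Hochberg over 22570 genes). Igfbp2 and Igfbp6 were higher, and Igf1, Igfbp1, Igfbp3, Igfbp4 and Igfbp5 were lower. Over all genes 37.6% passed, 25.5% higher and 12.2% lower. The groups did not overlap for 6 of the 10, as was the case for 37.6% of all genes. The median log2 fold change was -0.49 over the 10 genes and 0.14 over all genes tested. With TMM factors, which bring the median of all genes from 0.14 to 0.01, 2 of the 10 were higher and 6 lower, and among all called genes the share that was higher went from 67.7% to 49.8%. Because whole kidneys were sequenced, fewer cells of a type and less RNA per cell cannot be told apart in any of these values.

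Igf1 encodes IGF-I, the ligand that growth hormone induces. It was at 88.0, 64.7 and 70.6 CPM in RC/+ and at 57.7, 50.3, 41.5, 54.9 and 49.4 CPM in RC/-. All 5 RC/- libraries were below the lowest RC/+ library. On the log2 scale Igf1 was at -0.55 relative to RC/+ (SE 0.16, adjusted p = 0.00790 by limma-trend), a level 1.46-fold lower. Without RC/+ replicate 4, the highest control, it was -0.42 (adjusted p = 0.0733).

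Igf2, the ligand of fetal growth, was close to the limit of detection, with 0 to 12 counts per library. It ranged from 0.133 to 0.367 CPM in RC/+, from 0 to 0.168 CPM in RC/-, from 0.0438 to 0.434 CPM in RC/- D18 and from 0 to 0.33 CPM in RC/- D53. The groups overlapped. A count of 0, seen in 3 libraries, allows a level of up to 0.119 to 0.133 CPM on 3 counts per library, for counting error only. In the annotation 62.8% of its exon bases also belong to the read-through gene Gm49394 on the same strand, which was listed at 0 in all 24 libraries, so that reads from the shared bases may have been left uncounted. RC/- differed from RC/+ by -1.24 on the log2 scale (SE 0.51, adjusted p = 0.0604 by limma-trend). The difference passed the threshold without RC/- replicate 16 (-1.48, adjusted p = 0.0289) and with libraries 20 to 27 as a covariate (-1.24, adjusted p = 0.0442). With other libraries left out the adjusted p went up to 0.235.

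Igf1r, the receptor kinase, was at 91.2, 113 and 129 CPM in RC/+ and at 136, 149, 116, 128 and 129 CPM in RC/-. The ranges overlapped, and the log2 fold change of 0.25 (SE 0.12) had an adjusted p of 0.117 by limma-trend. With TMM factors it was 0.11 (adjusted p = 0.531), and without RC/+ replicate 6 it was 0.37 (adjusted p = 0.0441).

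Igfbp2, a binding protein abundant in fetal tissues, ranged from 26.5 to 735 CPM over the 24 libraries. Its level was 180, 108 and 191 CPM in RC/+ and 540, 735, 199, 435 and 422 CPM in RC/-. Replicate 15 of RC/-, at 199 CPM, was only just above the highest control. Relative to RC/+ the log2 fold change was 1.47 (SE 0.46, adjusted p = 0.0130 by limma-trend), a level 2.76-fold higher. Leaving out RC/+ replicate 5, the lowest control, gave 1.21 (adjusted p = 0.0833).

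Igfbp6, which prefers IGF-II over IGF-I, was a low-level gene at 7.10, 2.08 and 8.87 CPM in RC/+ and 13.4, 13.8, 20.8, 17.9 and 9.73 CPM in RC/-. All RC/- libraries were above all controls. The difference was 1.51 on the log2 scale (SE 0.41, adjusted p = 0.00471 by limma-trend), a level 2.84-fold higher. Its size rested on RC/+ replicate 5, without which it was 0.88 (adjusted p = 0.0936).

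Markers of other cells moved with Igfbp2 and Igfbp6. Of the 8 stromal fibroblast markers 5 were higher in RC/- and none lower, and they summed to 3127 to 5069 CPM in RC/- and 1502 to 2106 CPM in RC/+. The lowest sum of the controls was that of RC/+ replicate 5, the library lowest in both genes. Within RC/- the order differed, since Igfbp6 was highest in replicate 15, which had the lowest stromal sum of the group (3127 CPM), and Igfbp2 was highest in replicate 14, with the next lowest (3835 CPM). All 8 macrophage markers were higher (403 to 688 against 218 to 231 CPM), as were 6 of 8 collecting duct markers, with 1 lower (2428 to 4654 against 1133 to 1402 CPM) and 5 of 6 vascular smooth muscle and mesangial markers (456 to 895 against 303 to 373 CPM), with 1 lower. No gene of these lists was at 0 throughout a group. The part of these cells in the 2 increases was not tested. Without RC/- replicate 16, which carried adrenal RNA, the log2 fold changes were 1.46 for Igfbp2 (adjusted p = 0.0213) and 1.43 for Igfbp6 (adjusted p = 0.0111).

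Igfbp1 was lowered uniformly. It was at 26.5, 18.1 and 19.4 CPM in RC/+ and at 8.34, 8.02, 7.59, 8.44 and 7.26 CPM in RC/-. No RC/- library came within 9 CPM of a control. This was -1.40 on the log2 scale (SE 0.30, adjusted p = 0.000540 by limma-trend), a level 2.65-fold lower, and the call held without each library in turn. Igfbp1 is also a liver gene, and it was at 7.26 to 8.44 CPM in RC/- replicates 13, 16 and 17, where Alb was raised, and at 7.59 and 8.02 CPM in replicates 14 and 15. The part of liver RNA in the difference was not tested.

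Igfbp3, the main carrier of IGFs in serum and an endothelial product in kidney, was at 320, 236 and 274 CPM in RC/+ and 236, 155, 179, 234 and 225 CPM in RC/-. The groups were separated by less than 1 CPM, 236.06 against 236.43. The difference was -0.43 on the log2 scale (SE 0.15, adjusted p = 0.0217 by limma-trend). That call was lost when RC/+ replicate 4 (adjusted p = 0.141), RC/+ replicate 6 (0.0569), RC/- replicate 14 (0.0618) or RC/- replicate 15 (0.0513) was left out. Of the 8 endothelial markers 5 were lower in RC/-, with sums of 732 to 1104 CPM against 967 to 1327 CPM, and their part in the difference was not tested.

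Igfbp4, the main target of the protease PAPP-A, varied little within groups. It was at 991, 891 and 1035 CPM in RC/+ and 596, 584, 695, 663 and 686 CPM in RC/-. The gap between the groups was wider than the range within RC/-. At -0.59 on the log2 scale (SE 0.08, adjusted p = 4.82e-06 by limma-trend) this was the call with the lowest p of the 10, and it held under every alternative tried.

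Igfbp5, which binds extracellular matrix as well as IGFs, divided the RC/- group. It was at 499, 662 and 489 CPM in RC/+. In RC/- it was at 604 and 489 CPM in replicates 13 and 14 and at 124, 185 and 164 CPM in replicates 15, 16 and 17. Replicate 13 was within the control range, replicate 14 lay just under the lowest control (488.9 against 489.4 CPM), and the other 3 were far below the lowest control. The difference was -1.09 on the log2 scale (SE 0.33, adjusted p = 0.0107 by limma-trend). The call was lost with only the RC/- and RC/+ libraries in the model (adjusted p = 0.0969) and without RC/+ replicate 5 (-0.95, adjusted p = 0.0616).

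Igfbp7 was at 2344, 2250 and 2407 CPM in RC/+ and at 2173, 2379, 1786, 2036 and 1992 CPM in RC/-. Only replicate 14 of RC/- lay within the control range. The difference of -0.18 on the log2 scale (SE 0.09, adjusted p = 0.130 by limma-trend) did not pass with total-count scaling. It passed with TMM factors (-0.32, adjusted p = 0.0113), by edgeR (adjusted p = 0.0121), by DESeq2 (adjusted p = 0.00210) and without RC/- replicate 14 (adjusted p = 0.0457). A share of 7.03% of its exon bases overlaps Polr2b on the opposite strand.

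**Figure D2:**
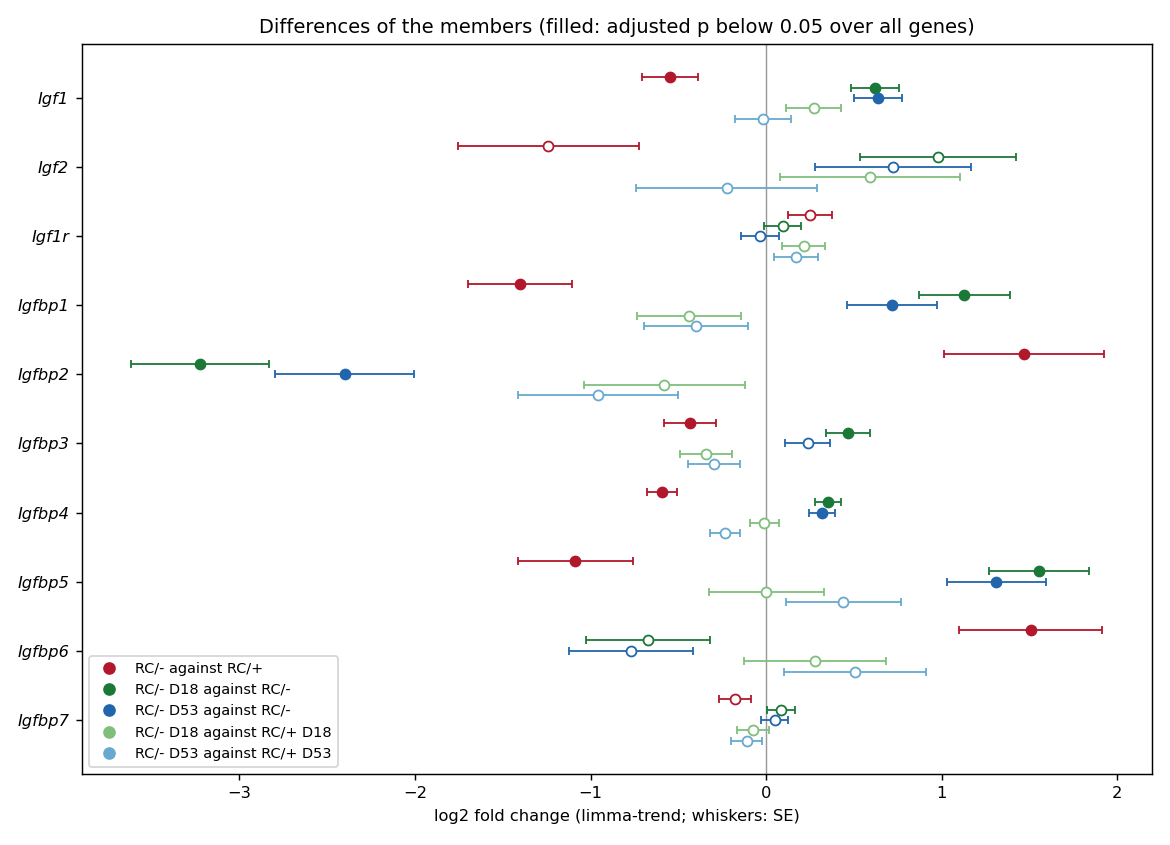
Log2 fold changes with SE of the 10 IGF genes in 5 comparisons, filled where the adjusted p was below 0.05. The red points (RC/- against RC/+) and the dark green and dark blue points (edited against unedited RC/-) lie on opposite sides of 0 for the 7 called genes, but these comparisons share the 5 RC/- libraries. The pale points, RC/- against RC/+ within each edited line, are all open.

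Edited RC/- kidneys were set against unedited ones to ask what differs with deletion of the motif in the cystic genotype. The labels do not give the founder of the unedited mice, so the deletion and a difference between founder lines cannot be told apart. Both comparisons share the RC/- libraries with the one above, so an opposite sign is not independent of it. In RC/- D18 against RC/-, 6 of the 10 genes passed, Igf1, Igfbp1, Igfbp3, Igfbp4 and Igfbp5 higher and Igfbp2 lower, against 41.2% of all genes (14.3% higher, 26.9% lower). Groups did not overlap for 5 of the 10, against 27.8% of all genes. The median log2 fold change was 0.41 over the 10 genes and -0.10 over all genes. In RC/- D53 against RC/-, 5 of 10 passed, the same genes other than Igfbp3, against 30.2% of all genes (11.3% higher, 18.9% lower). For 3 of the 10 the groups did not overlap, against 18.8% of all genes, and the medians were 0.28 and -0.08. With TMM factors the share of higher genes among all calls went from 34.8% to 49.9% for D18 and from 37.4% to 52.2% for D53, and the calls of the 10 genes were equal in number and direction.

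Igfbp2 had the largest difference of the 10 genes. It was at 112, 26.5, 62.0, 28.3 and 38.4 CPM in RC/- D18 and at 65.5, 61.4, 102, 81.1 and 106 CPM in RC/- D53. The lowest RC/- library, at 199 CPM, was above all 10 edited RC/- libraries. In D18 the log2 fold change was -3.22 (SE 0.39, adjusted p = 5.28e-07), a level 9.35-fold lower. In D53 it was -2.40 (SE 0.39, adjusted p = 5.27e-05 by limma-trend), 5.28-fold lower.

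Igfbp5 was at 718, 724, 836, 728 and 766 CPM in RC/- D18 and at 755, 738, 643, 522 and 559 CPM in RC/- D53. All 5 D18 libraries were above the highest RC/- library, and the D53 libraries overlapped RC/- replicate 13. Relative to RC/-, the D18 group was at 1.55 on the log2 scale (SE 0.28, adjusted p = 9.71e-05) and the D53 group at 1.31 (SE 0.28, adjusted p = 0.000954 by limma-trend).

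Igfbp1 was at 16.1, 18.8, 14.6, 17.2 and 21.1 CPM in RC/- D18, all at least 6 CPM above the RC/- libraries, a difference of 1.13 on the log2 scale (SE 0.26, adjusted p = 0.000961 by limma-trend). In RC/- D53 it fell into distinct levels, 9.08, 8.51 and 9.53 CPM in replicates 23 to 25 and 20.2 and 25.3 CPM in replicates 26 and 27. The group as a whole was 0.72 above RC/- on the log2 scale (SE 0.26, adjusted p = 0.0371). That call was lost without replicate 26 (adjusted p = 0.122) or replicate 27 (0.136), and also without any of RC/- replicates 14 to 17 (0.0508 to 0.0738), with no filter on low values (0.0624) and with only the groups compared (0.0650). The hepatocyte markers summed to 388 CPM in replicate 25 and 369 CPM in replicate 27, the replicates with raised Alb. In replicates 23, 24 and 26 they summed to 207, 236 and 226 CPM. The part of liver RNA in the Igfbp1 levels was not tested.

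Igf1 was at 76.5, 98.4, 87.1, 78.4 and 55.0 CPM in RC/- D18 and at 87.2, 66.8, 96.4, 69.2 and 76.9 CPM in RC/- D53. Only replicate 22 of D18 overlapped RC/-. In D18 the difference from RC/- was 0.62 on the log2 scale (SE 0.14, adjusted p = 0.000714), and in D53 it was 0.64 (SE 0.14, adjusted p = 0.000885 by limma-trend).

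Igfbp4 was at 820, 866, 752, 844 and 825 CPM in RC/- D18 and at 804, 690, 818, 871 and 837 CPM in RC/- D53. Apart from D53 replicate 24, each edited library was above every RC/- library. The D18 group was at 0.35 on the log2 scale (SE 0.07, adjusted p = 0.000394) and the D53 group at 0.32 (SE 0.07, adjusted p = 0.00166 by limma-trend).

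Igfbp3 was at 250, 345, 329, 255 and 242 CPM in RC/- D18, all above RC/-, a difference of 0.47 on the log2 scale (SE 0.13, adjusted p = 0.00457 by limma-trend). In RC/- D53 it was at 234, 181, 258, 274 and 263 CPM, which overlapped RC/-, with 0.24 (SE 0.13, adjusted p = 0.172). Without RC/- D53 replicate 24 the latter passed at 0.34 (adjusted p = 0.0433), and by DESeq2 it passed at 0.31 (adjusted p = 0.0495).

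Igfbp6 was at 7.45, 7.04, 11.1, 13.9 and 7.89 CPM in RC/- D18 and at 10.7, 9.08, 6.05, 6.32 and 12.3 CPM in RC/- D53. Its ranges overlapped RC/-, and neither -0.67 in D18 (adjusted p = 0.132) nor -0.77 in D53 (adjusted p = 0.105 by limma-trend), on the log2 scale, passed. With only the groups compared in the model, both passed (adjusted p = 0.0304 and 0.0228). Igf1r (0.09 and -0.04) and Igfbp7 (0.08 and 0.05) had log2 fold changes that did not pass either, though DESeq2 called Igfbp7 in D18 (0.19, adjusted p = 0.0282). For Igf2 they were 0.98 (adjusted p = 0.0819) and 0.72 (adjusted p = 0.243), and the former passed without RC/- replicate 16 (1.22, adjusted p = 0.0377) or RC/- D18 replicate 18 (adjusted p = 0.0344).

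Markers of several cell types moved with these differences as well. In RC/- D18 against RC/-, 6 of 8 stromal fibroblast markers were lower, and their sum was 996 to 2673 CPM against 3127 to 5069 CPM in RC/-. All 8 macrophage markers were lower (270 to 299.8 against 403 to 688 CPM), 5 of 8 collecting duct markers were lower and 1 higher (1382 to 1772 against 2428 to 4654 CPM), and all 9 proximal tubule markers were higher (8549 to 11865 against 2239 to 5212 CPM). In RC/- D53, 4 of 8 stromal markers (1771 to 2826 CPM) and 8 of 8 macrophage markers (293 to 391 CPM) were lower, 3 of 8 collecting duct markers were lower and 1 higher (1762 to 2991 CPM), and 9 of 9 proximal tubule markers were higher (6657 to 8601 CPM). In both lines 6 of 6 thick ascending limb and distal convoluted tubule markers were higher, as were 5 of 6 podocyte markers, with 1 lower. Vascular smooth muscle and mesangial markers were lower in 5 of 6 and higher in 1, also in both lines. Endothelial markers were higher in 6 of 8 in D18 and in 3 of 8 in D53, with 0 lower. The part of these cells in the differences of the 10 genes was not tested.

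The skeletal muscle RNA of libraries 20 to 27 fell on all RC/- D53 and on 3 of 5 RC/- D18 libraries. With these libraries excluded, 6 of 10 genes still passed in RC/- D18 against RC/-, with Igfbp2 at -2.97 (adjusted p = 0.00120). With the set as a covariate, 1 of 10 passed in RC/- D53 against RC/-, namely Igf1 (0.90, adjusted p = 0.0191). Among all 22570 genes the number called fell from 6805 to 1796 with this covariate. Igfbp2 then had -1.98 (adjusted p = 0.0844), Igfbp4 0.38 (adjusted p = 0.0708), Igfbp5 1.21 (adjusted p = 0.158) and Igfbp1 0.71 (adjusted p = 0.396). The covariate is estimated from replicates 20 to 22 against replicates 18 and 19 of RC/- D18, since no unedited library belongs to the set.

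The mixture of binding proteins shifted with these genes. Igfbp2 made up 5.84% to 15.03% of the summed level per kb of the 7 binding protein genes in RC/-, and 0.649% to 4.24% in all other libraries. The ratio of Igfbp5 to Igfbp2, both per kb, was 0.119 to 0.344 in RC/-. It was 0.790 to 1.88 in RC/+, 1.11 to 7.74 in RC/+ D18, 0.889 to 0.934 in RC/+ D53, 1.97 to 8.38 in RC/- D18 and 1.63 to 3.69 in RC/- D53. Every RC/- library was below every other library, and among noncystic groups the highest ratios were in RC/+ D18. Within RC/- the ratio was lowest in replicates 16 and 17 and highest in replicate 13.

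**Figure D3:**
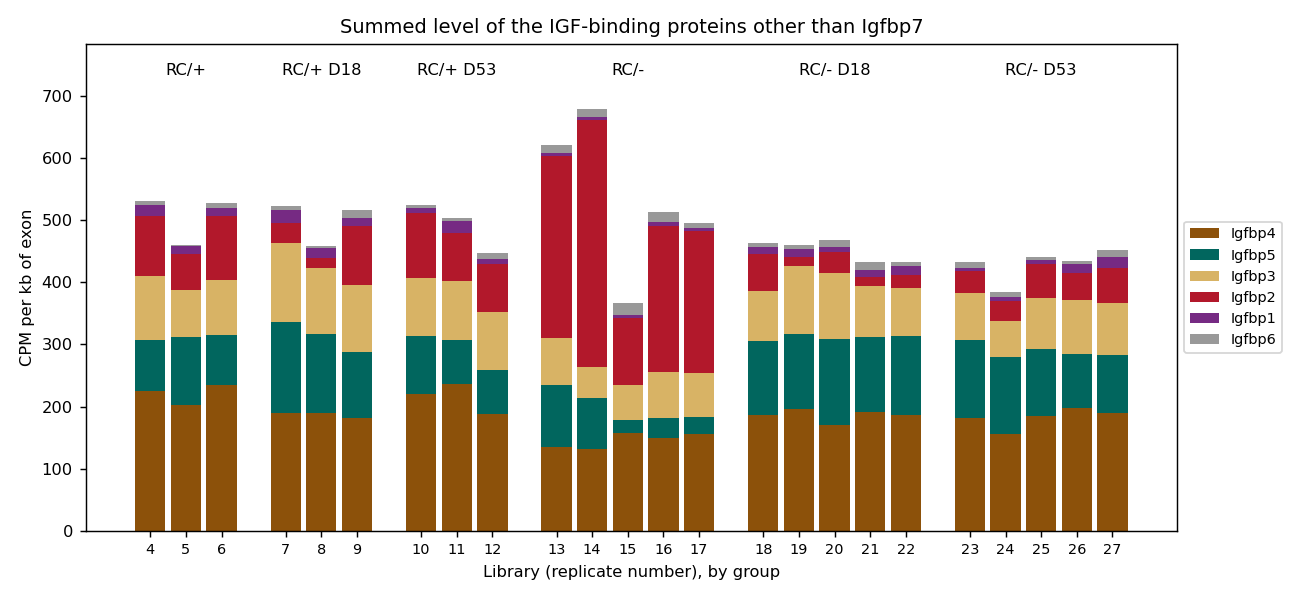
Level of the 6 binding protein genes other than Igfbp7 in CPM per kb of exon, stacked for each library and grouped by genotype. In RC/- the Igfbp2 part (red) is larger than in any other library and the Igfbp5 part (teal) is thin in replicates 15 to 17.

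**Figure D4:**
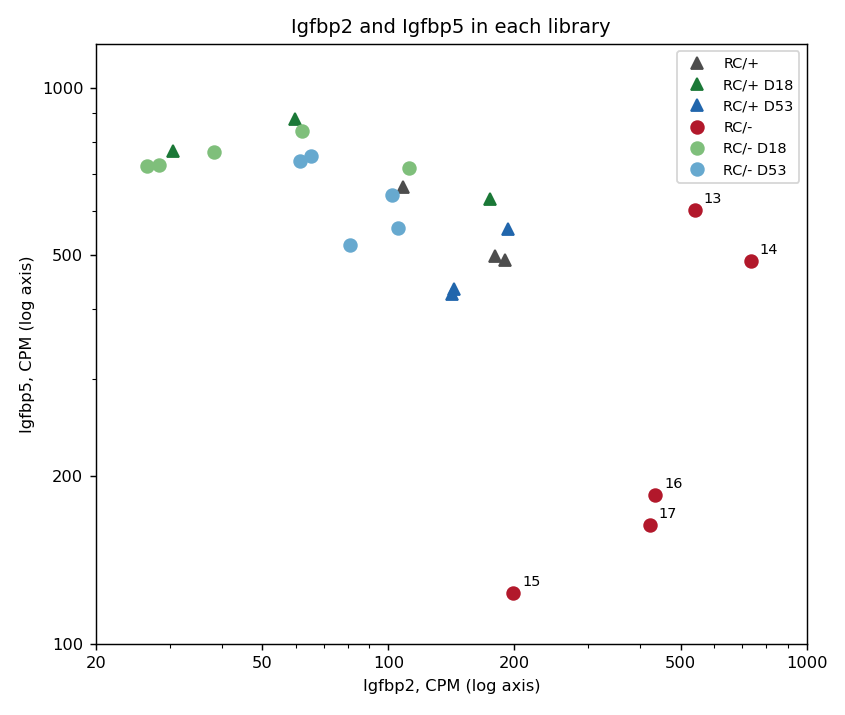
Igfbp2 against Igfbp5 in CPM, both on log axes, 1 point per library, with RC/- libraries numbered by replicate. The 5 RC/- libraries lie to the right of all others, between 199 and 735 CPM of Igfbp2, and split into replicates 13 and 14 at 489 to 604 CPM and replicates 15 to 17 at 124 to 185 CPM of Igfbp5.

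Edited and unedited noncystic kidneys were compared to ask whether these genes differ with the deletion where there are no cysts. In RC/+ D18 against RC/+, 0 of 10 genes passed by limma-trend, edgeR or DESeq2, against 0.00443% of all genes. An unadjusted p below 0.05 was seen for 3 of the 10 and for 1013 of all 22570 genes. Those of the 10 with groups that did not overlap were Igfbp3 (log2 fold change 0.37, at 398, 333 and 340 CPM in RC/+ D18) and Igfbp4 (-0.23, at 840, 835 and 805 CPM), both with an adjusted p of 0.983. Such separation was seen in 9.95% of all genes in this comparison. Igfbp2 was at 59.7, 30.6 and 175 CPM in RC/+ D18, a 5.73-fold range within the group, and its log2 fold change of -1.18 had an adjusted p of 0.983. The stromal marker sum in these libraries was 1227, 1733 and 2463 CPM, so that replicate 9 was highest in both, while replicate 7 had the lowest sum and replicate 8 the least Igfbp2. In RC/+ D53 against RC/+, 0 of 10 passed by any of the 3 tools, against 0% of all genes. An unadjusted p below 0.05 was seen for 0 of the 10 and for 525 of all 22570 genes. Log2 fold changes of the 10 ran from -0.29 to 0.23. The groups overlapped for all 10, where 8.84% of all genes did not overlap.

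Within the edited lines, the cystic and noncystic genotypes were compared without any RC/- library. In RC/- D18 against RC/+ D18, 0 of 10 genes passed by the 3 tools, against 0.266% of all genes (0.261% higher, 0.00443% lower). An unadjusted p below 0.05 was seen for 1 of the 10 and for 2011 of all 22570 genes. For all 10 the groups overlapped, where 5.76% of all genes did not. The log2 fold changes were 0.00 (SE 0.33) for Igfbp5, -0.01 (SE 0.08) for Igfbp4, -0.44 (SE 0.30) for Igfbp1, -0.58 (SE 0.46) for Igfbp2 and 0.28 (SE 0.41) for Igfbp6. In RC/- D53 against RC/+ D53, 0 of 10 passed by the 3 tools, against 2.6% of all genes (2.45% higher, 0.146% lower). An unadjusted p below 0.05 was seen for 2 of the 10 and for 3013 of all 22570 genes. There Igfbp2 had -0.96 (SE 0.46, adjusted p = 0.364), the opposite sign to RC/- against RC/+, and its groups, 61.4 to 106 CPM in RC/- D53 and 142 to 193 CPM in RC/+ D53, did not overlap. Igfbp3 was the other gene whose groups were apart, at 181 to 274 CPM against 293 to 295 CPM (-0.30, adjusted p = 0.391), and such separation was seen in 11.6% of all genes. With only the groups compared in the model the Igfbp2 difference passed (adjusted p = 0.00440). RC/- D53 against RC/- D18 also had 0 of 10 past the threshold by the 3 tools, against 0.266% of all genes (0.244% higher, 0.0222% lower). There 1 of the 10 had an unadjusted p below 0.05, as had 2993 of all 22570 genes. The groups were without overlap for 0 of the 10, against 2.74%, and Igfbp2 had 0.83 (SE 0.39, adjusted p = 0.370).

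Whether the cystic difference itself differed between an edited line and the unedited mice was tested with an interaction term by limma-trend. In the D18 line 3 of 10 genes passed, against 17.1% of all genes (6.31% higher, 10.8% lower), namely Igf1 (0.82, SE 0.22, adjusted p = 0.0128), Igfbp4 (0.58, SE 0.12, adjusted p = 0.00138) and Igfbp2 (-2.05, SE 0.65, adjusted p = 0.0297). In the D53 line 2 of 10 passed, against 11.3% of all genes (4.73% higher, 6.55% lower), namely Igfbp2 (-2.43, SE 0.65, adjusted p = 0.0159) and Igfbp5 (1.53, SE 0.46, adjusted p = 0.0342). Both terms use the same RC/- and RC/+ libraries. The Igf1 term was lost without RC/+ replicate 4 (adjusted p = 0.0510). For Igfbp2 the D18 term was lost without RC/+ replicate 5 (0.0944), RC/+ D18 replicate 9 (0.148) or RC/- D18 replicate 21 (0.0557), and the D53 term without RC/+ replicate 5 (0.0596). With libraries 20 to 27, those with muscle RNA, excluded, the D18 term of Igfbp2 was -1.79 (adjusted p = 0.194). With that set as a covariate, Igfbp2 passed neither in D18 (0.132) nor in D53 (0.255), and Igfbp5 did not pass in D53 (0.270). The D18 term of Igfbp2 was also lost with no filter on low values (0.0540) and with only the groups compared (0.0718), as was the D53 term of Igfbp5 (0.0611 and 0.0675). The Igfbp5 term in D53 was lost without RC/+ replicate 4 or 5, RC/+ D53 replicate 11 or 12, RC/- replicate 15, 16 or 17 or RC/- D53 replicate 23 or 24 (0.0506 to 0.0995), by edgeR (0.0667) and by DESeq2 (0.0550). Other terms were gained. In D18 Igfbp1 passed with only the groups compared (0.97, adjusted p = 0.00645). In the same line Igfbp5 passed without RC/- replicate 13 (0.0112) or 14 (0.0323), Igf2 without RC/- D18 replicate 18 (0.0476) and Igfbp6 without RC/+ D18 replicate 8 (0.0454). In D53 Igfbp1 passed without RC/+ D53 replicate 11 (0.0289), and Igfbp4 passed without RC/+ replicate 5 (0.0446), RC/+ D53 replicate 11 (0.0360), RC/- replicate 15 (0.0454) or RC/- D53 replicate 24 (0.0208). With TMM factors the D53 terms of Igf1 (0.63, adjusted p = 0.0422) and Igfbp4 (0.46, adjusted p = 0.0236) passed.

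The surrounding IGF system was read from a list of 26 further genes, of which 25 passed the expression limit and Igfbpl1 did not. In RC/- against RC/+, 9 were higher and 4 lower, 13 of 25 against 37.6% of all genes, with a median log2 fold change of 0.30 against 0.14 for all genes. Among receptors and adaptors, 4 of 7 were higher and 2 lower. On the log2 scale the insulin receptor-related receptor gene Insrr differed by -0.89 (adjusted p = 0.00116), the adaptor Irs1 -0.67 (adjusted p = 0.0345) and the adaptor Grb10 0.54 (adjusted p = 0.00594). Insrr was at 41.0, 40.4 and 38.5 CPM in RC/+ and 23.4, 28.3, 29.0, 13.9 and 17.2 CPM in RC/-. For Irs1, 30.9% of the exon bases overlap other annotated genes.

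Genes that act on the binding proteins included the widest differences of this list. Of 6 such genes, 3 were higher and 1 lower in RC/-. Stc1, which encodes a stanniocalcin that inhibits PAPP-A, was at 23.2, 10.8 and 11.04 CPM in RC/+ and 55.9, 76.8, 49.7, 33.1 and 64.2 CPM in RC/-, higher by 1.93 on the log2 scale (adjusted p = 2.14e-05). Pappa, the gene for PAPP-A itself, was at 15.1, 17.8 and 15.5 CPM in RC/+ and 41.3, 34.2, 57.1, 60.9 and 47.5 CPM in RC/-, higher by 1.55 (adjusted p = 1.03e-06). The protease and its inhibitor were thus both higher, with no overlap between groups. Igfals, the acid-labile subunit of the serum IGF complex, was lower at -1.22 (adjusted p = 4.60e-06).

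In the growth hormone axis 2 of 5 genes were higher and 1 lower in RC/-. The growth hormone receptor gene Ghr was at 129, 136 and 124 CPM in RC/+ and 76.3, 77.3, 86.6, 81.9 and 79.7 CPM in RC/-, at -0.69 on the log2 scale (adjusted p = 1.25e-07). Socs2, a feedback inhibitor of growth hormone signalling, had 1.098 (adjusted p = 0.000340) and the kinase Jak2 0.22 (adjusted p = 0.0250). Of the 5 genes of the Igf2 locus and Igf2 mRNA binding, and of the 2 related binding protein genes tested, 0 passed by limma-trend. An unadjusted p below 0.05 was seen for 2 and 0 of them, and for 10274 of all 22570 genes. Proximal tubule markers, which moved with Ghr, were lower in 9 of 9, with sums of 2239 to 5212 CPM in RC/- against 9256 to 10042 CPM in RC/+. Their part in the difference was not tested.

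In the edited RC/- kidneys 15 of the 25 genes passed in D18 against RC/-, 5 higher and 10 lower, against 41.2% of all genes. In D53 11 passed, 4 higher and 7 lower, against 30.2%. On the log2 scale Ghr was higher by 0.60 in D18 (adjusted p = 9.28e-08) and by 0.49 in D53 (adjusted p = 3.52e-06). For Igfals the differences were 1.05 in D18 (adjusted p = 4.14e-06) and 0.89 in D53 (adjusted p = 6.16e-05), and for Insrr 1.36 (adjusted p = 1.13e-06) and 1.06 (adjusted p = 5.59e-05). Pappa was lower, at -1.21 in D18 (adjusted p = 3.66e-06) and -0.76 in D53 (adjusted p = 0.00136). Stc1 did not pass, at -0.57 in D18 (adjusted p = 0.0904) and -0.27 in D53 (adjusted p = 0.491).

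Pappa and Stc1 were the genes of the list that passed within an edited line. In RC/- D53 against RC/+ D53, 2 of 25 passed against 2.6% of all genes. Pappa was at 13.7, 13.4 and 11.6 CPM in RC/+ D53 and 26.4, 40.5, 29.9, 27.2 and 19.3 CPM in RC/- D53, higher by 1.11 on the log2 scale (adjusted p = 0.00130). Stc1 was at 21.8, 10.6 and 9.13 CPM in RC/+ D53 and 50.2, 56.9, 44.6, 38.2 and 36.3 CPM in RC/- D53, higher by 1.79 (adjusted p = 0.000998). For both genes the groups did not overlap. In the same comparison 8 of 8 skeletal muscle markers were higher (164 to 218 CPM in sum against 7.84 to 10.1 CPM), as were 5 of 8 macrophage markers (293 to 391 against 205 to 251 CPM) and 4 of 8 collecting duct markers (1762 to 2991 against 1003 to 1218 CPM), and their part in the calls was not tested. In the D18 line the values were 0.18 (adjusted p = 0.884) for Pappa and 1.20 (adjusted p = 0.127) for Stc1, and whether the lines differ in this was not tested.

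**Figure D5:**
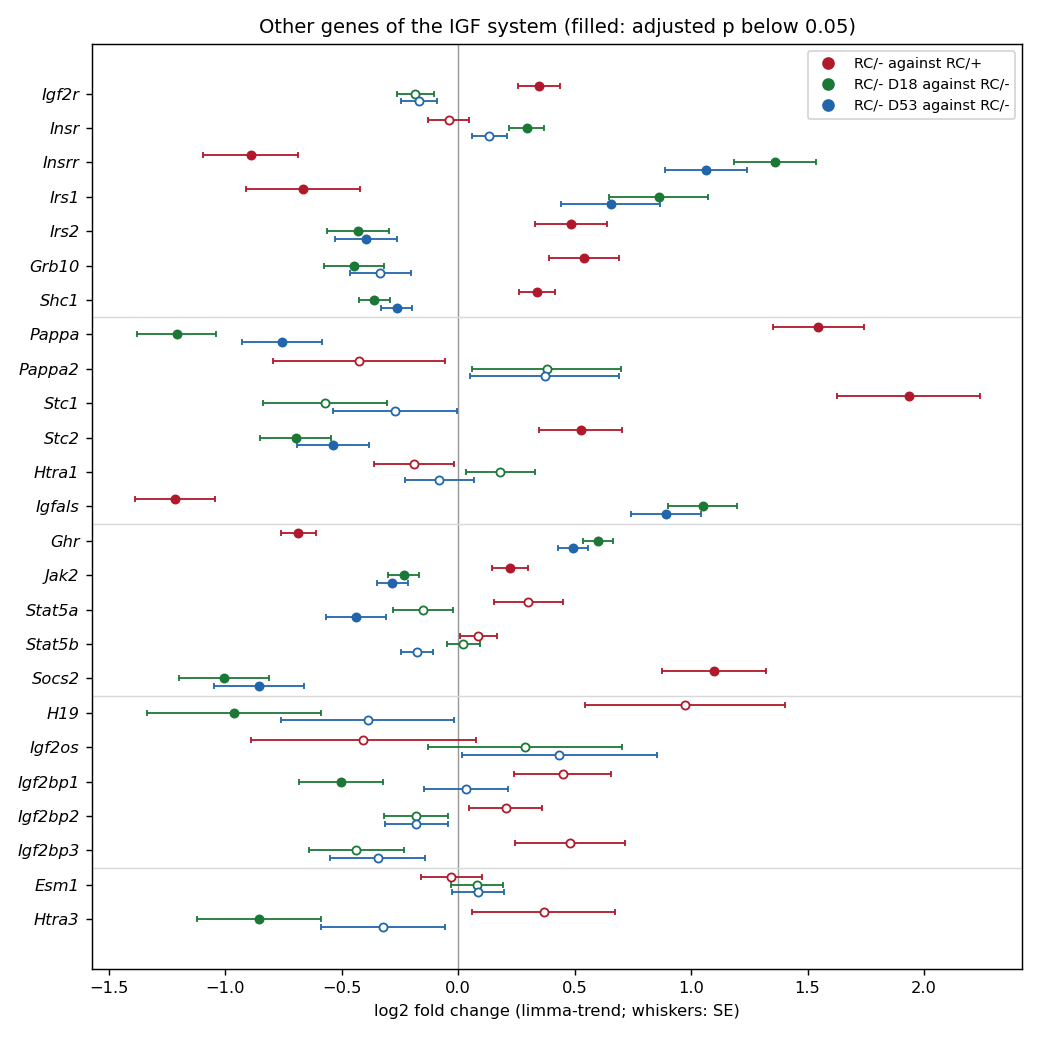
Log2 fold changes with SE of the 25 other IGF system genes tested, in RC/- against RC/+ (red) and in RC/- D18 (green) and RC/- D53 (blue) against RC/-, filled where the adjusted p was below 0.05, with lines between the subgroups. Stc1 and Pappa stand farthest to the right in red at 1.93 and 1.55, and Igfals farthest to the left at -1.22. The 3 comparisons share the RC/- libraries.

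The genes whose pattern over the 24 libraries came closest to a binding protein gene were found by the root mean square (RMS) difference of log2 CPM, each centred on its RC/+ mean, among 13736 genes. Igfbp1 was most like Cacng4 (RMS difference 0.374), Dpep1 (0.389), a brush border dipeptidase gene, and Slc37a4 (0.393), the glucose-6-phosphate transporter gene. Igfbp5 was most like Ranbp3l (0.312), Slc14a2 (0.348), the urea transporter gene of the medulla, and Tmem61 (0.368). For Igfbp6 they were Pou2f2 (0.506), Tle6 (0.516) and the macrophage gene Cd68 (0.554). The nearest genes to Igfbp2, the keratin gene Krt14 (0.806), Tnfrsf19 (0.873) and Rnf39 (0.883), were farther from it than those of the other 3. Likeness over all libraries did not require a call in RC/- against RC/+. By limma-trend Tnfrsf19 (0.44 on the log2 scale, adjusted p = 0.304) and Rnf39 (0.40, adjusted p = 0.208) did not pass there. Nor did Ranbp3l (-0.85, adjusted p = 0.141). The likenesses are descriptions over libraries of 6 groups and carry no test.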

How the data were processed

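Per the study's methods, the authors used Trim Galore 0.6.3 to trim paired reads, aligned them to GRCm38 with STAR 2.5.3a and counted reads per gene of Ensembl release 94. The deposited table holds raw read counts, with no normalization and no filter, of 54532 genes in 24 libraries. The strand setting of the counting is not given in the sources used here, and 0 columns were left out. Groups follow the deposited genotype labels.

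Counts were scaled to CPM by each library's total. The main test was limma-trend (limma 3.58.1, edgeR 4.0.16 for CPM, R 4.3.3) on log2 CPM with a prior count of 2, over 22570 genes whose mean log2 CPM reached -3, with 6 group means and no covariate in 1 fit of all 24 libraries. Fold changes are on this log2 scale, which understates those of low genes. Tests were two-sided, with Benjamini-Hochberg adjustment and a threshold of 0.05, over 8 comparisons and 2 interaction contrasts. The fit was tested on simulated data. Alternatives were TMM factors, DESeq2 size factors, edgeR quasi-likelihood, DESeq2 1.42.0, no filter, a prior count of 0.5, the compared groups alone, sex (from Xist and Ddx3y counts) or libraries 20 to 27 as a covariate, each library left out, and, added after the data were seen, libraries 20 to 27 excluded. The labels do not say whether mice shared a litter, so p-values measure the spread between these mice.

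The 10 members and all lists were chosen with earlier results of these data known. All members are named. Of the further genes, at most 3 a subgroup called in RC/- against RC/+ are named, by size. Genes of like pattern are the 3 nearest to each member called in RC/- against RC/+ at 1 or more on the log2 scale in size, among genes whose mean log2 CPM reached 1. Coordinates and exon lengths are from GENCODE M21 (GRCm38), which matched 54409 identifiers. RefSeq promoters (GRCm38.p6) were matched by symbol for all 10 members, and where a gene had several the first is printed.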

Additional observations from a re-analysis of the deposited data

Results flagged for a closer look

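The cystic difference in an edited line departed from that in the unedited line by an interaction term (limma-trend, Benjamini-Hochberg adjusted) for 5 combinations of gene and line. In the D18 line these were Igf1 (0.82 on the log2 scale, from -0.55 in RC/- against RC/+ to 0.27 within D18), Igfbp4 (0.58, from -0.59 to -0.01) and Igfbp2 (-2.05, from 1.47 to -0.58). In the D53 line they were Igfbp2 (-2.43, from 1.47 to -0.96) and Igfbp5 (1.53, from -1.09 to 0.44). The Igfbp4 term kept its call under every alternative tried. The other 4 each lost it without at least 1 library, as given beside them above. A test of the gap to the nearest neighbour flagged no sample in the 30 combinations examined, each of 1 gene and 1 group of 5 libraries. Chance alone flags about 1 in 20. The groups of 3 libraries were not examined.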

How the results depend on the processing

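Among the 10 genes, 23 differences passed in the 8 comparisons and 2 interaction contrasts. Under the alternatives other than leaving out a library, 199 of their 216 values still passed, 17 did not and 0 changed direction. With each library left out in turn, 218 of 246 values passed, 28 did not and 0 changed direction. Of the 77 differences that did not pass, 46 of 709 values under other settings and 51 of 734 with a library left out changed sign without passing, and 19 and 15 passed. The number of genes called moved by over 1.5 times as follows. RC/- D53 against RC/- went from 5 to 1 with libraries 20 to 27 as a covariate, where calls over all genes went from 6805 to 1796. RC/- D53 against RC/+ D53 went from 0 to 1 with only the groups compared. The D53 interaction went from 2 to 4 with TMM factors or DESeq2 size factors, to 1 without a filter or with only the groups compared, and to 0 with libraries 20 to 27 as a covariate. Over all genes this interaction had 2545 calls in the main fit, 2444 and 2420 with the 2 kinds of factors and 403 with the covariate. The cause of these moves was not tested. Leaving out 1 library gave 4 to 8 calls in RC/- against RC/+ (lowest without RC/+ replicate 5) and 1 to 3 in the D53 interaction. Over all genes, DESeq2 called 143 in RC/- D18 against RC/+ D18 and 276 in RC/- D53 against RC/- D18, where limma-trend called 60 each. RC/- D53 has no library outside 20 to 27, so no value without them was computed for it. Without those libraries the D18 interaction called 2 of 10 genes. No paired analysis was possible because the labels give no litter or other pairing of mice between groups. Depth limits Igf2, at no more than 12 counts a library.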
